A study of Arabidopsis thaliana with 6 samples.

Results

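Root hairs are tubular outgrowths of root epidermal cells that lengthen by growth at the tip. The 44 genes described here are bHLH transcription factors that start and sustain root hair growth, and proteins that build the wall, membrane, cytoskeleton and signals of the growing tip. They were chosen by name. RHS8, RHS12, RHS13, RHS14, RHS16, RHS18 and RHS19 were taken by their row names, and the others by locus or by the symbol of that locus. All 44 were found among the 33511 rows of the expression table. Of them 8 are regulators (RHD6, RSL1 to RSL4 and LRL1 to LRL3) and 36 are growth effectors, of which 20 act in the cell wall and 16 in signalling, membranes or the cytoskeleton. The list was put together with results of this comparison known, so calls and fold changes of its members are given as a description.

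Whole Arabidopsis thaliana seedlings were studied in 2 groups of 3 libraries. Estradiol libraries came from seedlings bathed for 8 h in liquid medium with 10 µM estradiol, and mock libraries from seedlings bathed for 8 h in the same medium with the solvent DMSO. All seedlings were 4 days old at the end of growth on agar, were homozygous for a MUTE cDNA in the vector pER8 in the Col-0 background, and were pooled at 40 to 50 per library. In pER8, estradiol activates a synthetic transcription factor, made from a constitutive promoter, that drives the inserted gene. Because all 6 libraries carry the construct, effects of MUTE, of estradiol and of the activator cannot be told apart. The seedlings also hold every organ, so fewer root hair cells and less RNA per cell cannot be told apart. For the same reason, the organ that a gene's value came from is not known.

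In the root, the patterning factors GL2 and WER mark cells that will not form hairs, and RHD6 with RSL1 acts in the cells that will. RHD6 and RSL1 turn on RSL2 and RSL4, which set how long a hair grows by driving wall, secretion and signalling genes. MUTE is known from a different epidermal lineage, that of stomata, where it ends the unequal divisions of the precursor cell.

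A DNA element found in promoters of root hair genes, the root hair element, is known from several of these genes. It was searched for, on both strands, in the 300 bases from 250 before to 50 after the annotated gene start (RefSeq, assembly TAIR10.1). It was held by 11 of 44 members (25%), against 238 of 27443 promoters of protein-coding genes (0.867%). Of 37 other root hair genes, set beside the members further on, 3 held it (8.11%). All 11 members with the element were effectors (11 of 36, 30.6%), and 0 of the 8 regulators held it. With 0.867% over all promoters, 0 of 8 does not set the regulators apart from other genes. The element was worked out elsewhere from promoters of root hair genes, EXPA7 among them, and served to find the RHS genes, so these shares are not independent of how the genes came to be known. The matches that lie wholly before the gene start are printed below on the gene's own strand, with the matched bases in capitals, because they belong to genes whose values are described further on.
RHS13 (chr4:993221-993261, minus strand): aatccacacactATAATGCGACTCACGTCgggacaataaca
RHS18 (chr5:7426206-7426245, plus strand): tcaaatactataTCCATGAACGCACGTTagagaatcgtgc
EXPA7 (chr1:4276415-4276455, plus strand): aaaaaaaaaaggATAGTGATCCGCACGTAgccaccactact
EXPA18 (chr1:23331511-23331550, plus strand): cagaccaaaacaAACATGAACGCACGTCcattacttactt
MRH6 (chr2:1132035-1132075, plus strand): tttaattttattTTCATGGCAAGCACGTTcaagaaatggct
PRP3 (chr3:23182543-23182583, plus strand): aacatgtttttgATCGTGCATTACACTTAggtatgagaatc
PRP1 (chr1:20504760-20504800, plus strand): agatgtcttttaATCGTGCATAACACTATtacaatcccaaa
LRX1 (chr1:4069887-4069926, plus strand): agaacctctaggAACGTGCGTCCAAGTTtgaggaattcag
RHS15 (chr4:12920624-12920663, plus strand): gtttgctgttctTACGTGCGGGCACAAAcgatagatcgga

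In RHS13, RHS18, EXPA7, EXPA18 and MRH6 the element runs in the direction of the gene, and in PRP3, PRP1, LRX1 and RHS15 it matched the opposite strand. RHS16 and PERK13 held a match that begins 11 and 12 bases before the start, and EXPA18 a second one that begins at base 6 after it. A looser core that the element contains, TG and CACG with any 4 or 5 bases between them on either strand, was held by 16 of 44 members (36.4%) and 10.8% of all promoters. Among the 37 other root hair genes 27.0% held the core. The palindrome CACGTG, which shares its first 4 bases with that core, was held by 0 of 44 members and 7.68% of all promoters.

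**Figure D1:**
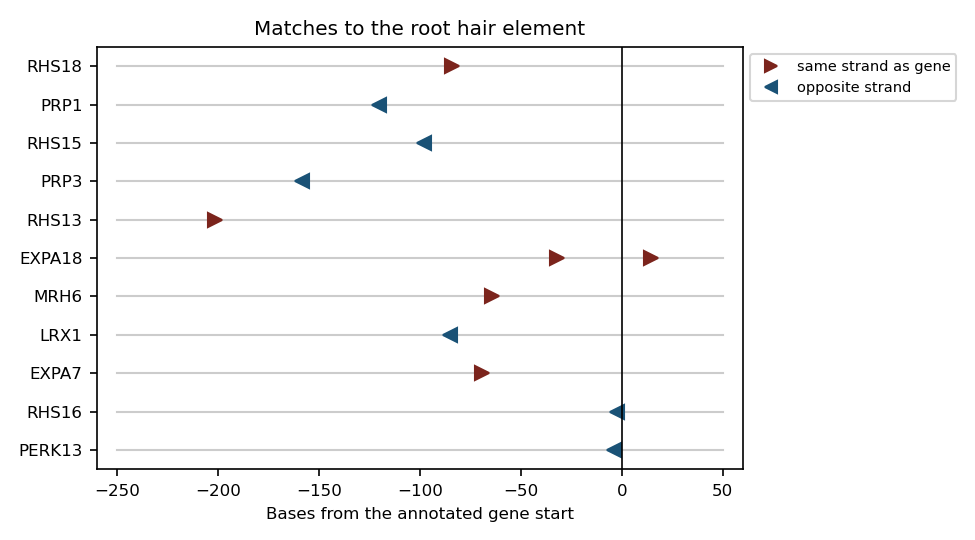
Position of the matches to the root hair element from 250 bases before to 50 bases after the annotated start of the 11 effectors that held it. The x axis is in bases from the start, and arrowheads stand at the middle of each match and give its strand. In 9 genes a match lies before the start, with its first base 40 to 210 bases away, and RHS16 and PERK13 held one at the start itself.

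The values are FPKM, fragments scaled to transcript length and library size, which makes levels of different genes comparable per length. Genes that reached 1 FPKM in at least 3 of the 6 libraries were fitted with limma on log2(FPKM + 1), a scale that understates changes of low genes, and were called at an adjusted p of 0.05 over all 19134 such genes. Labels were checked on the induced gene. MUTE stood at 2946, 2964 and 3049 FPKM in estradiol libraries, against 3.31, 1.89 and 1.90 FPKM in mock libraries. FPKM totals were 461556 to 469530, and 9514, 8583 and 9182 rows were at 0 in estradiol 1, 2 and 3, against 8559 to 8679 in mock. The number of fragments behind each value is not known, and counting error is therefore not given. RHS19, EXPA7, EXPA18, AHA7, MRH2, ADF11, BST1 and AT4G26010 overlap a gene on the opposite strand, and their values are uncertain because the use of strand in counting is not given in the sources used here. AHA7 also overlaps AT3G00950 on its own strand, which counting by strand would not resolve.

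With estradiol, 26 of the 39 members that passed the filter were lower and 7 were higher, while 6 did not pass the threshold. Over all 19134 genes 36.2% were called, 12.9% lower and 23.3% higher. Of all calls 64.3% were higher, against 46.9% when FPKM were divided by median-of-ratios size factors and 52.8% after quantile normalization. Under both of these scalings 26 members fell and 5 rose. The median log2 fold change was -0.40 for these members and 0.05 for all genes. The groups did not overlap for 27 of the 39 members in the lower direction, where the share over all genes was 17.4%, and for 7 in the higher direction, where it was 33.7%, and in either direction it was 51.0%. Of 33 effectors 25 fell and 4 rose, with a median of -0.44, whereas of 6 regulators 1 fell and 3 rose, with a median of 0.19. Only 2 effectors rose when estradiol 1, estradiol 3 or mock 3 was left out, and under both other scalings. The other 5 members, RSL1, RSL3, BST1, RHS17 and the row ARK1, were below the filter and were not fitted.

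**Figure D2:**
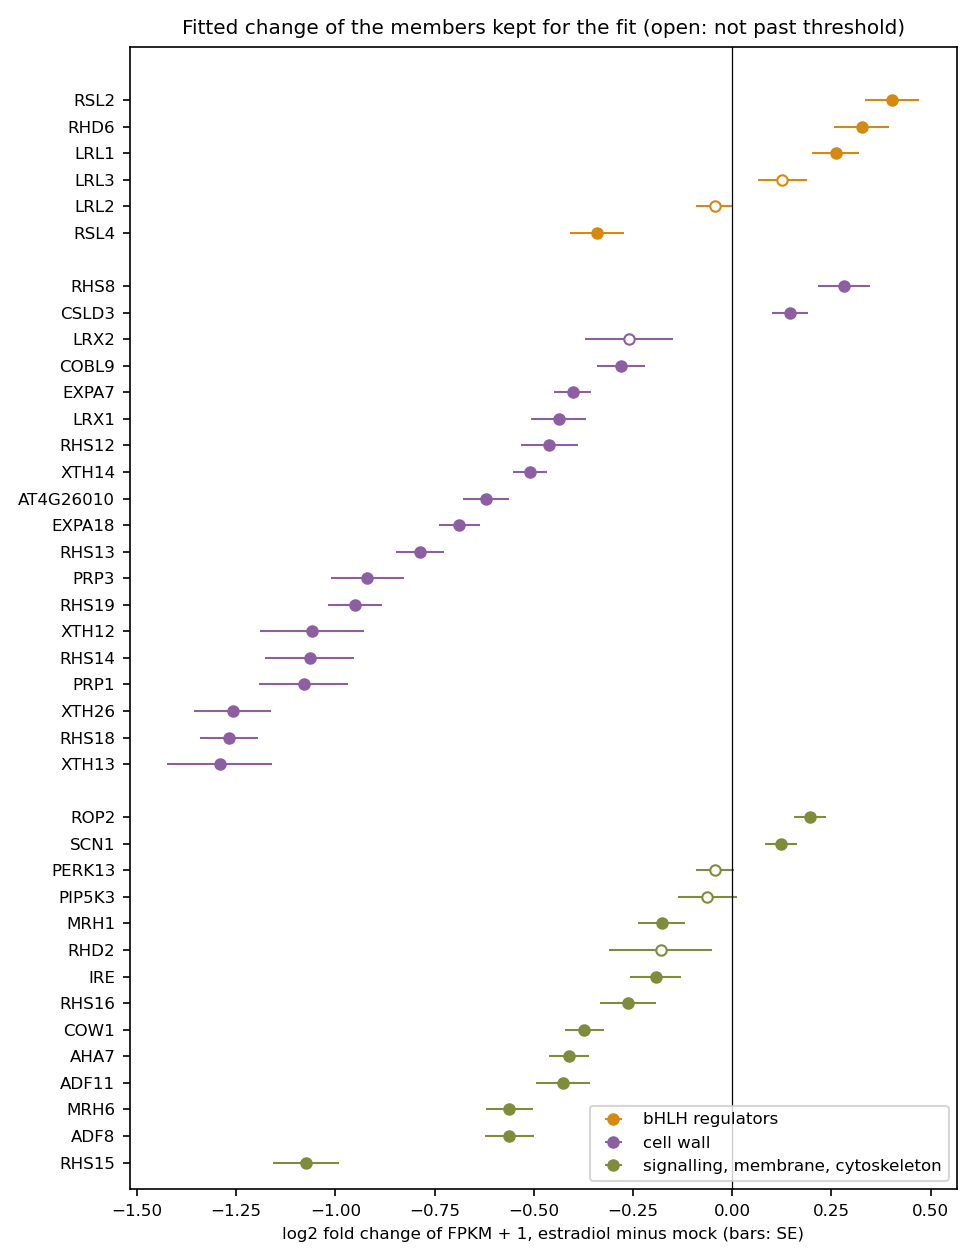
Fitted log2 fold change of FPKM + 1, estradiol minus mock, with its SE, for the 39 members that passed the filter, grouped by role. Filled points passed the threshold and open points did not. The cell wall effectors reach from 0.28 down to -1.29, while the regulators lie between -0.34 and 0.40.

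Among the regulators, the gene at the head of the pathway rose. RHD6 (AT1G66470), which commits epidermal cells to hair initiation, was at 3.37, 2.94 and 3.56 FPKM in estradiol libraries, against 2.39, 2.57 and 2.29 FPKM in mock libraries. The lowest estradiol value was above the highest mock value, and the log2 fold change was 0.33 (SE 0.0687). Its closest relative RSL1 (AT5G37800), listed as ATRSL1, was at 0.60, 0.68 and 0.85 FPKM with estradiol and 0.25, 0.53 and 0.51 FPKM in mock. These values also do not overlap, but they lie below the filter and were not fitted.

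The pair of factors that act after RHD6 moved in opposite directions. RSL2 (AT4G33880) was at 1.75, 2.04 and 1.72 FPKM with estradiol and at 1.10, 1.09 and 1.24 FPKM in mock. Its means were 1.84 ± 0.177 and 1.14 ± 0.0839 FPKM (SD, n = 3 each), and its log2 fold change of 0.40 (SE 0.0686) was the highest of the 39 members. RSL4 (AT1G27740), whose level is known to set the length of hairs, fell. It was at 3.22, 3.61 and 3.82 FPKM with estradiol, against 4.92, 5.0 and 4.37 FPKM in mock, a log2 fold change of -0.34 (SE 0.0683). All 3 estradiol values were below all mock values, and the mean was 25.5% lower. RSL3 (AT2G14760), of the same subfamily, was listed at 0.02, 0.03 and 0.03 FPKM with estradiol and 0.00, 0.01 and 0.01 FPKM in mock, too low to compare.

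The LRL factors, a separate bHLH group that also promotes hair growth, were the highest regulators. LRL1 (AT2G24260) rose, with 9.43, 8.54 and 9.40 FPKM in estradiol and 7.98, 7.44 and 6.93 FPKM in mock libraries (log2 fold change 0.26, SE 0.0595). LRL2 (AT4G30980) had overlapping groups at 6.63, 6.38 and 6.60 FPKM with estradiol and 6.98, 6.40 and 6.93 FPKM in mock. Its change of -0.04 did not pass, with a 95% interval of -0.15 to 0.06. LRL3 (AT5G58010) was at 6.67, 7.34 and 6.13 FPKM with estradiol and 6.16, 5.87 and 6.13 FPKM in mock. Its change of 0.13 did not pass (95% interval -0.02 to 0.27). Without estradiol 3 it was 0.18 and passed. The rises of RHD6, RSL2 and LRL1 and the fall of RSL4 passed under both other scalings and without any 1 library.

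**Figure D3:**
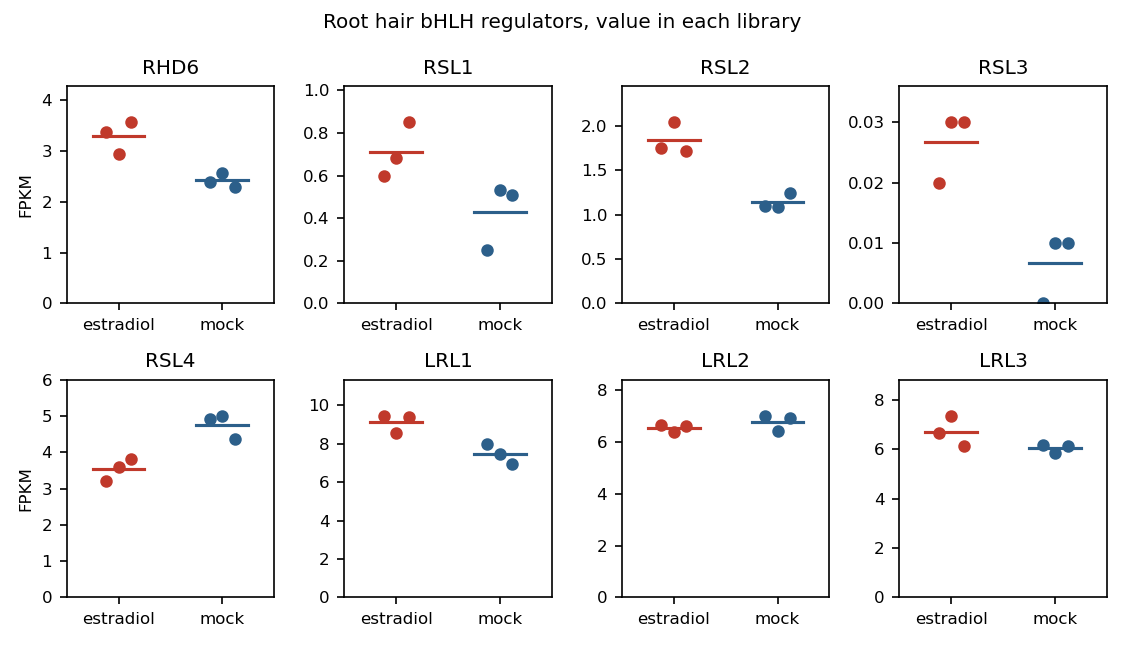
FPKM of the 8 bHLH regulators in each estradiol library (left) and mock library (right), with the group mean as a line and a separate axis from 0 for each gene. RHD6, RSL2 and LRL1 are higher with estradiol in every library and RSL4 is lower, while LRL2 and LRL3 overlap. RSL1 and RSL3 also lie higher, but both were below the filter and not fitted, and RSL3 is too low to compare.

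Most cell wall effectors fell. Of 19 that passed the filter 16 fell, 2 rose and 1 did not pass, where 12.9% of all genes fell and 23.3% rose. The median log2 fold change of the 19 was -0.69. Summed over all 20, the level was 258 to 295 FPKM in estradiol libraries, against 451 to 508 FPKM in mock libraries, a difference of -41.2% between the means. A fall of at least 2-fold was seen in 6 of these 19 and a rise of that size in 0, where the shares over all genes were 0.423% and 0.387%.

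Xyloglucan endotransglucosylase/hydrolases (XTH), which cut and rejoin the xyloglucan between cellulose fibrils, were among the most changed. XTH13 (AT5G57540) was at 6.91, 4.32 and 5.73 FPKM with estradiol, against 16.73, 14.48 and 14.11 FPKM in mock. Its log2 fold change of -1.29 (SE 0.132) was the largest fall of all members on the log2(FPKM + 1) scale. In means of FPKM XTH26 fell most, by 63.4%, against 62.6% for XTH13. With 0.1 in place of 1 added to FPKM, XTH26 also fell more than XTH13 (-1.43 against -1.42). XTH12 (AT5G57530), the tandem neighbour of XTH13, followed it closely, with 10.35, 7.0 and 8.16 FPKM with estradiol and 21.55, 16.74 and 17.84 FPKM in mock (-1.06, SE 0.131). In both genes estradiol 2 was the lowest library and mock 1 the highest. Neither shared a stretch of 50 bases with another annotated gene. XTH26 (AT4G28850) was at 4.71, 3.54 and 3.91 FPKM with estradiol and at 12.40, 10.82 and 10.01 FPKM in mock (-1.26, SE 0.0976). XTH14 (AT4G25820) started from a higher level and fell less, with 35.67, 36.01 and 37.14 FPKM against 54.54, 52.36 and 49.34 FPKM in mock (-0.51, SE 0.0423).

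The class III peroxidases, which oxidise wall polymers and handle hydrogen peroxide in the wall, all fell. RHS18 (AT5G22410) was at 4.85, 4.94 and 5.37 FPKM with estradiol, against 15.11, 13.46 and 12.24 FPKM in mock (log2 fold change -1.27, SE 0.0731). Its mean was 62.9% lower, and its estradiol libraries lay close together. RHS19 (AT5G67400) was at 25.10, 23.70 and 21.54 FPKM with estradiol and 50.29, 43.66 and 44.68 FPKM in mock (-0.95, SE 0.068). The third peroxidase, AT4G26010, was the second highest member in both groups, at 42.97, 36.37 and 40.40 FPKM with estradiol and 64.17, 60.76 and 60.40 FPKM in mock (-0.62, SE 0.059).

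Structural wall proteins changed in the same direction. PRP3 (AT3G62680), a proline-rich protein of the hair wall, had the highest level of all members in both groups. It was at 45.22, 35.76 and 46.22 FPKM with estradiol and 85.74, 79.27 and 76.95 FPKM in mock (log2 fold change -0.92, SE 0.0919). Its relative PRP1 (AT1G54970) was at 17.86, 13.85 and 18.89 FPKM with estradiol and 40.85, 34.57 and 34.37 FPKM in mock (-1.08, SE 0.111). Mean levels were 47.4% and 53.9% lower, and neither gene's groups overlapped. RHS13 (AT4G02270), annotated in the extensin family, was at 30.50, 28.93 and 31.58 FPKM with estradiol and 55.95, 55.28 and 48.31 FPKM in mock (-0.79, SE 0.0603).

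Expansins loosen the wall without cutting it. EXPA18 (AT1G62980) was at 7.77, 8.33 and 8.17 FPKM with estradiol, against 14.58, 13.34 and 13.02 FPKM in mock (log2 fold change -0.69, SE 0.051). EXPA7 (AT1G12560), the other hair expansin, was at 9.65, 9.12 and 8.94 FPKM with estradiol and 11.96, 13.06 and 12.55 FPKM in mock (-0.40, SE 0.0469). The 2 genes stood at 13.6 ± 0.824 and 12.5 ± 0.551 FPKM in mock (SD, n = 3 each). EXPA18 was lower than EXPA7 in every estradiol library and higher in every mock library. RHS14 (AT4G22080), a pectate lyase, was at 2.13, 1.31 and 1.66 FPKM with estradiol and 5.13, 4.52 and 4.2 FPKM in mock (-1.06, SE 0.112). It shared 3.57% of its 50-base stretches with another gene.

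Of the remaining 7 wall genes 3 fell, 2 rose, 1 did not pass and 1 was below the filter. The pectin methylesterase RHS12 (-0.46), the leucine-rich repeat extensin LRX1 (-0.44) and the membrane-anchored COBRA-like protein COBL9 (-0.28) fell, with no overlap between groups. LRX2, the partner of LRX1, had a log2 fold change of -0.26 and did not pass, with a 95% interval of -0.52 to -0.0035. It passed when estradiol 1 was left out. The O-fucosyltransferase family gene RHS17 was at 0.79 to 0.92 FPKM with estradiol and 0.94 to 1.10 FPKM in mock, below the filter. Both wall genes that rose make polysaccharides. The xyloglucan glycosyltransferase RHS8 was at 1.91, 1.64 and 1.75 FPKM with estradiol and 1.17, 1.34 and 1.32 FPKM in mock (0.28, SE 0.0654). CSLD3, a cellulose synthase-like enzyme of the growing tip, rose by 0.15 (SE 0.0442) and lost the call under 7 of 13 alternatives, among them both other scalings and the fits without estradiol 1, estradiol 3, mock 2 or mock 3.

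**Figure D4:**
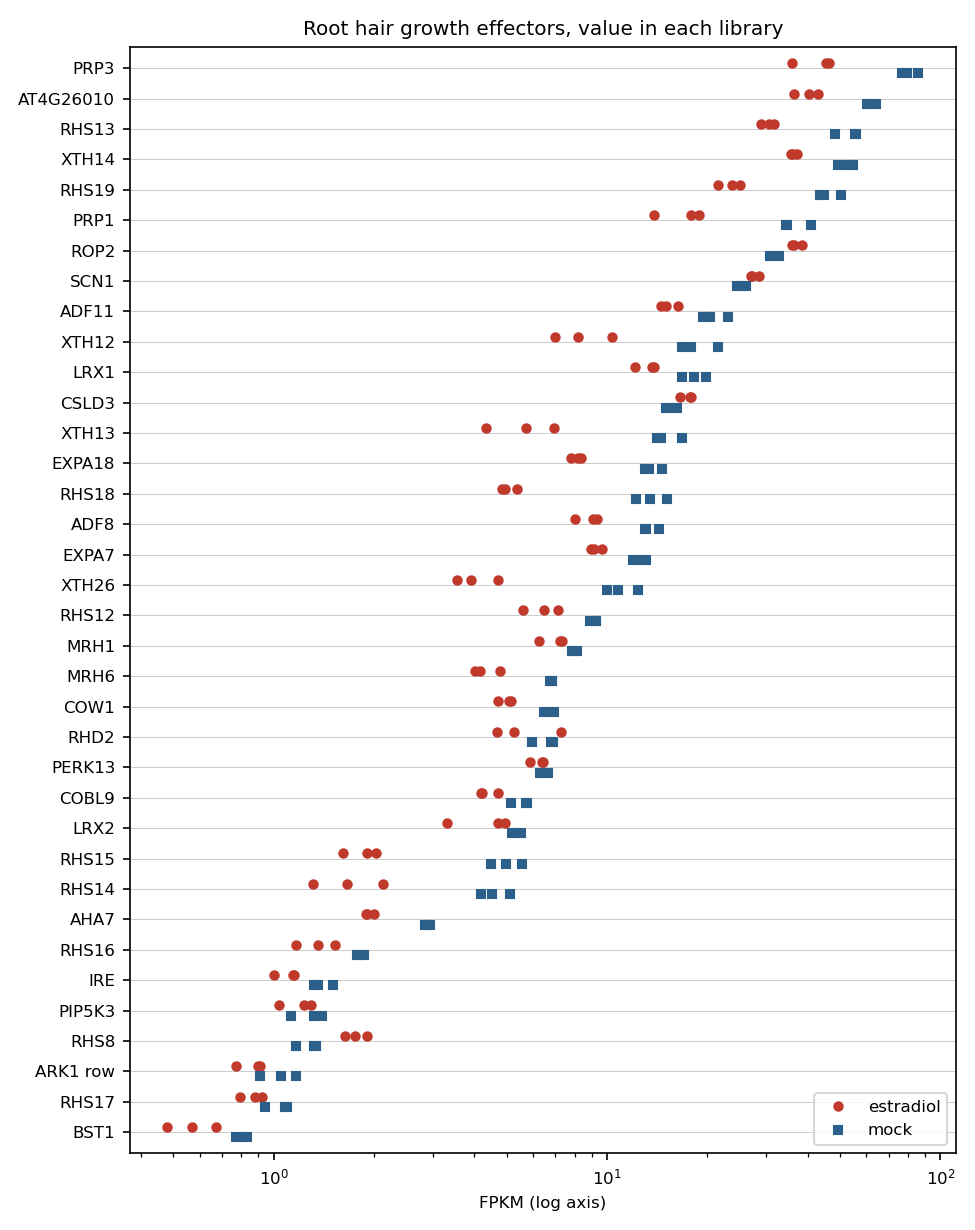
FPKM on a log axis of the 36 effectors in each estradiol library (circles, upper in each row) and mock library (squares, lower), ordered by mock mean. Circles lie left of squares without overlap in 28 rows and right of them in 4, RHS8, CSLD3, ROP2 and SCN1. The row ARK1 is the candidate row of MRH2.

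Effectors of signalling, membranes and the cytoskeleton moved less, with a median log2 fold change of -0.23 over the 14 that passed the filter. Of these 9 fell, 2 rose and 3 did not pass, where 12.9% of all genes fell and 23.3% rose. Their sum over all 16 was 123 to 127 FPKM in estradiol libraries and 137 to 145 FPKM in mock libraries, a difference of -10.6% between the means. ROP2 and SCN1, which rose, made up the largest parts of this sum, at means of 32.1 and 25.3 FPKM in mock. With 0.1 in place of 1 added to FPKM, the median of the 14 was -0.36, against -0.75 for the cell wall effectors. The largest fall in this group was that of RHS15 (AT4G25220), named in RefSeq as the glycerol-3-phosphate permease family gene G3Pp2. It was at 2.03, 1.91 and 1.61 FPKM with estradiol and 5.55, 4.97 and 4.48 FPKM in mock (-1.07, SE 0.0829).

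Actin is the track on which secretory vesicles reach the tip, and both actin-depolymerizing factors fell. ADF8 (AT4G00680) was at 9.08, 8.01 and 9.33 FPKM with estradiol and 14.31, 12.99 and 13.08 FPKM in mock (log2 fold change -0.56, SE 0.0623). ADF11 (AT1G01750) was at 16.36, 14.52 and 15.05 FPKM with estradiol and 23.09, 20.40 and 19.40 FPKM in mock (-0.43, SE 0.0681). MRH6 (AT2G03720), a gene named for its part in root hair form, was at 4.15, 4.01 and 4.77 FPKM with estradiol and 6.86, 6.75 and 6.85 FPKM in mock (-0.56, SE 0.0596). The proton pump AHA7 (-0.41) and the phosphatidylinositol transfer protein COW1 (-0.37) also fell without overlap.

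ROP2 and SCN1, members of the GTPase switch at the tip, went the other way in these whole-seedling values. ROP2 (AT1G20090), listed as ARAC4, is a GTPase that marks the site of outgrowth. It was at 35.83, 38.38 and 36.44 FPKM with estradiol and 32.50, 30.90 and 32.76 FPKM in mock (log2 fold change 0.20, SE 0.0397), and the call held under each alternative. SCN1 (AT3G07880), the inhibitor that keeps ROP2 to 1 site, was at 28.64, 27.23 and 26.95 FPKM with estradiol and 25.20, 26.14 and 24.46 FPKM in mock. The groups do not overlap and the change of 0.12 (SE 0.0397) passed, but the call was lost under 10 of 13 alternatives, among them both other scalings.

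The NADPH oxidase RHD2, listed as ATRBOHC, makes the reactive oxygen that feeds the calcium gradient of the tip. It was at 5.25, 7.30 and 4.66 FPKM with estradiol and 6.90, 6.78 and 5.94 FPKM in mock. Estradiol 2 was the highest of the 6 libraries and estradiol 1 and 3 the lowest, so that the groups overlap and the change of -0.18 did not pass (95% interval -0.48 to 0.12). Without estradiol 2 it passed. PIP5K3, which makes a signalling lipid at the tip, had a change of -0.06 that did not pass (95% interval -0.24 to 0.11). PERK13, a receptor-like kinase known to restrain hair growth, had one of -0.04 that did not pass either (95% interval -0.15 to 0.07). The receptor-like kinases RHS16 (-0.26) and MRH1 (-0.18) and the protein kinase IRE (-0.19) fell, but each lost the call in at least 4 of the 6 fits that left out a library. The phosphoinositide phosphatase gene BST1 was at 0.67, 0.48 and 0.57 FPKM with estradiol and 0.77, 0.82 and 0.83 FPKM in mock, below the filter. The row ARK1, at 0.77 to 0.91 FPKM with estradiol and 0.91 to 1.17 FPKM in mock, may hold the kinesin gene MRH2 or the receptor kinase AT1G65790, which carry the same symbol.

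The effectors that fell did not do so evenly within a group. Of the 25, estradiol 2 was the lowest estradiol library for 15 and estradiol 1 the highest for 15. Mock 1 was the highest mock library for 19 and mock 3 the lowest for 18. Without estradiol 2 the median log2 fold change of the cell wall effectors was -0.71, and without mock 1 it was -0.64, against -0.69 in all libraries. Effectors with the root hair element had a median of -0.69 over 11 genes, of which 10 fell, 0 rose and 1 did not pass. Those without it had a median of -0.39 over 22 genes, of which 15 fell, 4 rose and 3 did not pass, and the lowest values were -1.27 with it and -1.29 without it. This is a description, and the mock medians of these genes also differed, at 13.6 FPKM with the element and 10.1 FPKM without it. The 4 effectors that rose all lacked the element in the 300 bases searched, and 22 of the 33 effectors fitted lacked it. Of the 4, CSLD3 and SCN1 lost the call under both other scalings.

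Other genes of root hair growth, which are no members, were set beside these. Of 38 on the list 37 were found and 34 passed the filter, of which 9 fell and 7 rose, where 12.9% of all genes fell and 23.3% rose. Their median log2 fold change was -0.01. Their summed level was 712 to 729 FPKM with estradiol and 729 to 768 FPKM in mock. The 7 that rose were RHS11 (0.24), TRH1 (0.22), PDK1 (0.21), RHD4 (0.18), XI-K (0.17), RHD3 (0.17) and PI4KB1 (0.15). The largest falls were those of AT1G12950, a root hair specific gene by its RefSeq name, and of RHS9, listed as ATMES15. AT1G12950 was at 2.28, 2.01 and 2.19 FPKM with estradiol and 4.49, 3.63 and 3.65 FPKM in mock (-0.64, SE 0.0778, limma adjusted p 0.000673). RHS9 was at 2.22, 1.49 and 2.05 FPKM with estradiol and 3.47, 3.37 and 2.88 FPKM in mock (-0.54, SE 0.103, limma adjusted p 0.00498). The groups of neither gene overlapped. SYP123, a syntaxin that sorts cargo to the hair tip, was at 1.82, 1.52 and 1.30 FPKM with estradiol and 2.81, 2.60 and 2.60 FPKM in mock (-0.53, SE 0.0805, limma adjusted p 0.00178). AT1G16440, also named root hair specific, was at 1.51, 1.18 and 1.54 FPKM with estradiol and 1.99, 2.07 and 2.01 FPKM in mock (-0.33, SE 0.0727, limma adjusted p 0.0095). AT1G12950 and AT1G16440 were read from the rows RSH2 and RSH3, symbols that another locus shares, and were assigned to them because that other locus has a row of its own. ROP4, the close relative of ROP2, was at 30.48, 29.88 and 27.85 FPKM with estradiol and 30.34, 29.92 and 30.1 FPKM in mock and did not pass (-0.03, limma adjusted p 0.532). The receptor kinase FER, which acts upstream of the GTPases, was at 60.8, 59.95 and 57.71 FPKM with estradiol and 56.47, 56.41 and 53.55 FPKM in mock and did not pass (0.10, limma adjusted p 0.0654).

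Of 11 genes that pattern the root epidermis 9 passed the filter, of which 1 fell (CPC, -0.31) and 2 rose (MYB23, 0.31, and JKD, 0.33). These 3 of 9 stand beside 36.2% of all genes called. In whole seedlings, values of these 11 genes need not come from the root. GL2, the repressor of hair fate, was at 9.22, 10.02 and 10.28 FPKM with estradiol and 9.29, 9.45 and 9.83 FPKM in mock (0.04, limma adjusted p 0.537), with the sign turned under both other scalings (-0.01).

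Markers of other root cell types were set beside these values. In whole seedlings, the values of these markers need not come from the root either. Endodermis markers rose in 4 of 8 and fell in 0, where 23.3% of all genes rose, with sums of 72.4 to 73.8 FPKM with estradiol and 60.6 to 64.0 FPKM in mock. Both cortex genes fell, with sums of 65.6 to 70.7 FPKM with estradiol and 96.9 to 101 FPKM in mock, a sum that AT1G09750 carries for the most part. Stele markers were called in 0 of 3, with sums of 32.3 to 34.2 FPKM with estradiol and 32.8 to 34.6 FPKM in mock, and the groups overlapped for each. Root meristem markers summed to 3.64 to 4.0 FPKM with estradiol and 3.48 to 3.69 FPKM in mock, with 1 of 2 called (WOX5, higher). Root cap markers summed to 4.13 to 5.33 FPKM with estradiol and 4.5 to 5.34 FPKM in mock, with 0 of 2 called. Over all these markers 7 of 17 were called, and 4 without mock 1, where 36.2% of all genes were called. The part of these cell types in the changes of the root hair genes was not tested.

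**Figure D5:**
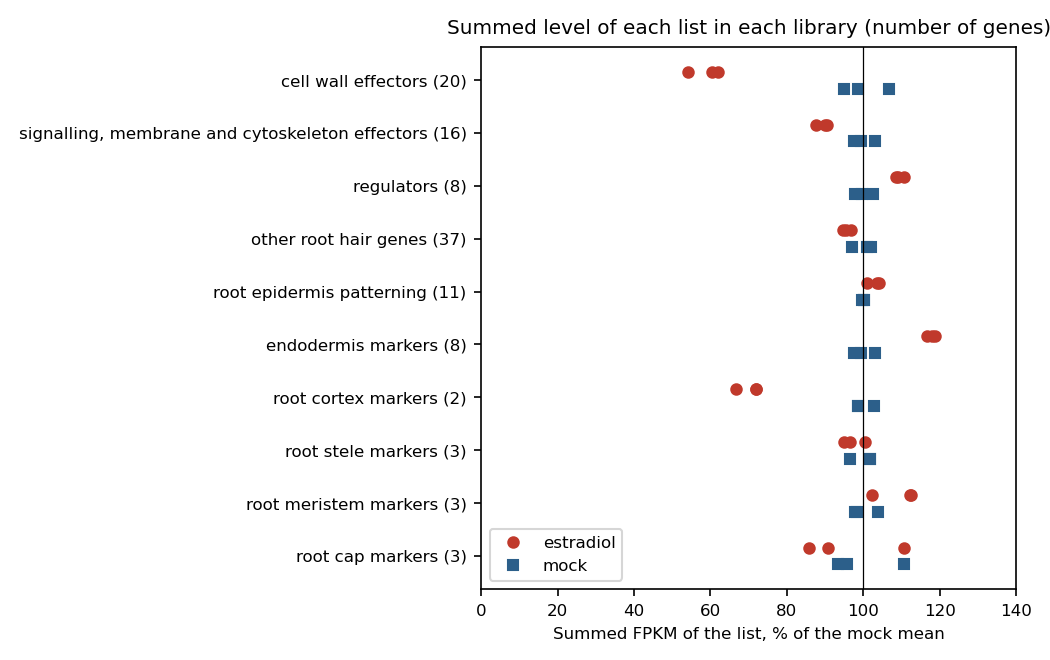
Summed FPKM of each list in each estradiol library (circles, upper in each row) and mock library (squares, lower), as a percentage of the list's mock mean, with the number of genes in brackets. Cell wall effectors and cortex markers lie lowest with estradiol, at mean differences of -41.2% and -29.9%, and endodermis markers lie 17.8% above mock.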

How the data were processed

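Messenger RNA of 6 libraries was read, per the labels' protocols, in pairs of 50 bases on a HiSeq 2500 from stranded libraries. The authors deposited FPKM values by gene name, written to 2 decimals. The submitters' processing notes name TopHat2 2.0.13, DESeq2 and the build TAIR10, with no role or order. The tool that made the FPKM values, the annotation and the use of strand in counting are not given in the sources used here. 1 further numeric column, with no sample or measure in its heading, was not used.

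Row names were paired with loci through RefSeq (TAIR10.1), which matched 97.6% of rows. Promoters were read from the same assembly by locus. Genes with at least 1 FPKM in at least 3 libraries entered limma 3.58.1 (R 4.3.3) on the log2(FPKM + 1) scale (eBayes with trend, two-sided, group as the only term, Benjamini-Hochberg over 19134 genes). The limma step was tested on simulated data with few changed genes and independent noise. That setting differs from these data, so it gives no support to single calls. Replicates are libraries of pooled seedlings; no label ties them to separate cultures or days, so SDs and SEs measure the spread between these libraries only. Summaries and plots used Python 3.11.15, pandas 2.3.3 and matplotlib 3.10.9.

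The members and all gene lists were chosen with earlier results of these data known. Values per library are given for the 8 regulators, the 14 effectors with the largest fitted change, the 4 others with the highest mean level and the 4 largest called changes among the other root hair genes, with ROP4, FER and GL2. EXPA7, RHS8, RHD2, RHS17, BST1 and the row ARK1 were added after their values were seen. Alternatives were another pseudocount, other filters, 2 other scalings, eBayes without a trend, a replicate block and leaving out each library.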

Additional observations from a re-analysis of the deposited data

How the results depend on the processing

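Of the 39 members fitted, 33 passed the threshold, and 24 to 32 did under the 13 alternatives, the fewest with the filter at 5 FPKM, which tested 29. Members called lower numbered 20 to 26, against 26 in the values reported. Across the 6 fits that each left out a library, 28 to 31 members were called, 23 to 26 of them lower and 5 to 6 higher. Members called higher numbered 4 with the filter at 5 FPKM, where fewer were tested, against 7. The median log2 fold change of the members was -0.31 without a filter, which adds 5 genes of low value, and -0.45 with median-of-ratios size factors, under which the median of all genes was 0.0005 in place of 0.0483. It was -0.43 to -0.36 when a library was left out. Other root hair genes past the threshold numbered 11 to 17, and 14 to 16 without 1 library. Cell type markers past the threshold numbered 7, against 4 with the filter at 5 FPKM, which left 8 to test, and 4 to 8 without 1 library. The low value was without mock 1, and the cause was not tested. The root hair element was held by 20.5% of members in the bases before the start alone and by 31.8% in 1000 bases before it, a window chosen after seeing the data in which 2.9% of all promoters held it. In that window 18.9% of the other root hair genes held it. ROP4 ranged from -0.0602 to 0.0027 when a library was left out, turning sign without estradiol 3. GL2 turned sign with size factors (-0.0098) and with quantile normalization (-0.0104). Neither passed in any of these, and the cause was not tested. Of the other combinations of a named gene and an alternative, 10 were weaker, all of SCN1, and 1 was stronger, while 393 kept direction and call.

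Over all 19134 genes, libraries with a common number did not deviate together (r of -0.0064, 0.047 and -0.002 for numbers 1, 2 and 3). Among the 25 effectors called lower, estradiol 1 was the highest estradiol library for 15 and mock 1 the highest mock library for 19. Whether these libraries deviated together for those effectors was not tested. In the fit with a replicate block 30 members passed, 25 lower and 5 higher.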
